A study of Mus musculus with 10 samples.

Results

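The knockout minus WT difference in H3K4me3 width was described at 12615 gene ends of mouse cardiac macrophages, sorted by whether NPM1 had been bound there in WT cells. A gene end is the outermost start or end of 1 of 21887 protein-coding genes (build mm10), which gives 43774 ends. Ends were taken where both the knockout and the WT H3K4me3 list held a peak within 1 kb, and these 12615 ends belonged to 11568 genes. Of them, 10012 also had a peak of the WT NPM1 list within 1 kb and 2603 had none. For each end, the bases under H3K4me3 peaks within 2 kb on either side (4001 bp in all) were counted in each genotype, and the knockout count minus the WT count is called the difference. A further 3179 ends carried H3K4me3 in the knockout list only and 1604 in the WT list only.

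The libraries came from CUT&Tag, in which an antibody tethers a transposase that cuts and tags the DNA around the bound protein or mark. The groups were H3K4me3 in NPM1 knockout cardiac macrophages on day 3 after myocardial infarction, H3K4me3 in WT cardiac macrophages on the same day after infarction, and NPM1 in WT cardiac macrophages on that day after infarction. NPM1 was also profiled in WT cardiac macrophages 3 days after sham operation and in WT bone marrow-derived macrophages, grown in 50 ng/ml M-CSF, that were untreated or had received 20 ng/ml IL-4 for 12 hours. Each group is 1 library, so the differences below lack a replicate check and knockout could not be tested against WT. The labels do not give the Cre driver, the deleted part of the gene, the age or sex of the mice, how many were pooled or how the macrophages were purified, and an H3K4me3 list does not test the deletion.

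H3K4me3, trimethylation of histone H3 at lysine 4, marks the start regions of active genes and is widest at highly used promoters. SET1 and MLL complexes write it and KDM5 demethylases such as KDM5B remove it. NPM1, nucleophosmin, is an abundant nucleolar protein and histone chaperone that takes part in ribosome assembly and also binds chromatin. In macrophages, H3K4me3 is found at housekeeping promoters and at those of lineage and inflammatory genes.

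The lists differed as wholes before any split by NPM1. The knockout H3K4me3 list held 52977 peaks with a median width of 438 bp that covered 36.2 Mb, and the WT H3K4me3 list held 73321 peaks with a median width of 290 bp that covered 28.3 Mb. The genome-wide background pileup read from the peak values, a stand-in for depth, was 2.49 in the knockout list and 2.92 in the WT list. The median deposited fold enrichment of a peak, which is the authors' value, was 3.85 in the knockout list and 3.29 in the WT list. Of 12 macrophage markers, 12 had a knockout H3K4me3 peak at a gene end and 10 a WT one, the complement gene C1qb and the integrin gene Itgam being without a WT peak. Cardiomyocyte markers had none in either list (0 of 7 in the knockout, 0 of 7 in WT). Fibroblast markers had a peak at 4 of 6 genes in the knockout and 1 of 6 in WT, endothelial markers at 3 of 5 and 1 of 5, B cell markers at 2 of 5 and 0 of 5, neutrophil markers at 2 of 5 and 3 of 5, and T and NK cell markers at 1 of 5 and 2 of 5. The part of these list-wide and cell-type differences in the values below was not tested.

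The promoters of 7 ends that recur below are shown because they span the range of responses and of base composition. They are the end with NPM1 that widened most (Foxo3), Tsc1, whose product restrains mTORC1 signalling, median ends with NPM1 (Zfp956 and Fchsd2), the widest gain without NPM1 at an end with a promoter entry (Kif26b) and median ends without NPM1 (Adamts17 and Pde5a). Each runs from 250 bp before to 50 bp after the RefSeq start on GRCm38.p6, the assembly that mm10 names, read 5′ to 3′ on the gene's strand. Capitals mark CpG dinucleotides.
Foxo3, chr10:42276646-42276945, minus strand: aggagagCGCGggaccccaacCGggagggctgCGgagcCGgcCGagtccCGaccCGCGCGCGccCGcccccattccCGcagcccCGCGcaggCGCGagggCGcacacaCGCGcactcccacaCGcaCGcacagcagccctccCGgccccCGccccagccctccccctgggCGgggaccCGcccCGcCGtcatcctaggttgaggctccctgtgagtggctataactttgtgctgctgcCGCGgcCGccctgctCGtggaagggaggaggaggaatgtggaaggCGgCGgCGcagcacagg
Tsc1, chr2:28640983-28641282, plus strand: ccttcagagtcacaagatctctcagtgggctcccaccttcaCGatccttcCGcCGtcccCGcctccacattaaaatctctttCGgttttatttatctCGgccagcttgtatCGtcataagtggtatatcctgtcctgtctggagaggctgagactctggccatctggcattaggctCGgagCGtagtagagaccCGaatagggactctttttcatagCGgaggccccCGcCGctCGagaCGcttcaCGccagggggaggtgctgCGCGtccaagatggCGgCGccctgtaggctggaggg
Zfp956, chr6:47953140-47953439, plus strand: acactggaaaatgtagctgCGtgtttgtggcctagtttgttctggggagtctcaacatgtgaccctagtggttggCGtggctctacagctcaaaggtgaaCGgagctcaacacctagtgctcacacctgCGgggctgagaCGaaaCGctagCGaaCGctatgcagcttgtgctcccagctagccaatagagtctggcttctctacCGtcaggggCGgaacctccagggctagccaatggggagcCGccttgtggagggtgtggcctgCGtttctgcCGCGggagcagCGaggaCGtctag
Fchsd2, chr7:101108525-101108824, plus strand: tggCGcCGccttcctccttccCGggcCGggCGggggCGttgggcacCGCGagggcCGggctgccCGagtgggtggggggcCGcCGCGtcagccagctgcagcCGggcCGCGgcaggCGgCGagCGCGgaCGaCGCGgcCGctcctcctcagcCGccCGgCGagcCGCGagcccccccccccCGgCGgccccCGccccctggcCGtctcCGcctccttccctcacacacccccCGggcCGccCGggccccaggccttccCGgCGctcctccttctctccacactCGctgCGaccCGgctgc
Kif26b, chr1:178528875-178529174, plus strand: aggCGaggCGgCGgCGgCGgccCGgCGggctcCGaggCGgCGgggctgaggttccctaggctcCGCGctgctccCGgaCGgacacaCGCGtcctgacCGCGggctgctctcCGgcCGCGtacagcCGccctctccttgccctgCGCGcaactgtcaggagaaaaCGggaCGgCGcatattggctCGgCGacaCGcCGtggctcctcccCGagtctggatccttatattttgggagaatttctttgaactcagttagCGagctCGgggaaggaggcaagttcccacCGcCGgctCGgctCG
Adamts17, chr7:66839485-66839784, plus strand: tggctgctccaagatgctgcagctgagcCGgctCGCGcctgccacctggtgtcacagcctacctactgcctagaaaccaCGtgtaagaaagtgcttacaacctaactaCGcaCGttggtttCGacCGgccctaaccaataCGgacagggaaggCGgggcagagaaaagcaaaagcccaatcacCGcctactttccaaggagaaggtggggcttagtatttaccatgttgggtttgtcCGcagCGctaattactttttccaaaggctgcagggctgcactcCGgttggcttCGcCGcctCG
Pde5a, chr3:122728908-122729207, plus strand: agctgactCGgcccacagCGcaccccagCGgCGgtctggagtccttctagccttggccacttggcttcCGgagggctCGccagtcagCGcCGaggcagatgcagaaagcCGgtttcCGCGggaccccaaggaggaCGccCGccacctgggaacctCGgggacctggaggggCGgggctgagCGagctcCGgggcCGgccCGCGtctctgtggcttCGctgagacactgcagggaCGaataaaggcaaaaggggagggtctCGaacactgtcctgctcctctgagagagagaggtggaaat
The Foxo3, Tsc1, Zfp956 and Fchsd2 promoters hold 35, 20, 16 and 42 CpGs in 300 bp. The Kif26b, Adamts17 and Pde5a promoters hold 38, 17 and 23. CpG-rich and CpG-poorer promoters thus stand among the printed sequences on both sides of the NPM1 split.

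H3K4me3 covered more bases in the knockout list at nearly every end, with or without NPM1. Over the 12615 ends the median cover was 1520 bp in the knockout (quartiles 1204 and 1887) and 920 bp in WT (quartiles 639 and 1195.5), and the median difference was 565 bp (quartiles 325 and 850). The knockout was wider at 12218 ends (96.9%) and narrower at 387 (3.07%). It was wider by 500 bp or more at 7182 ends (56.9%) and narrower by as much at 15 ends (0.119%). These shares are the background for every count of ends below.

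Pooled, ends with NPM1 did not widen more than ends without it. Ends with NPM1 had a median cover of 1589 bp in the knockout and 982 bp in WT, with a median difference of 559 bp (quartiles 326 and 842). Ends without NPM1 had 1268 bp in the knockout and 606 bp in WT, with a median difference of 586 bp (quartiles 323.5 and 871). NPM1 ends were therefore the wider ones in both genotypes, by 321 bp in the knockout and 376 bp in WT, while their median difference was 27 bp smaller (with minus without, -27 bp). The share wider by 500 bp or more was 56.5% with NPM1 and 58.7% without.

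Because NPM1 ends started wider, ends were compared within quintiles of WT covered bases, numbered 1 (narrowest) to 5 (widest), with bounds of 200 to 569, 570 to 820, 821 to 1022, 1023 to 1263 and 1264 to 2500 bp. The share of ends with NPM1 was 52.1%, 76.9%, 84.3%, 89.4% and 94.2% from the narrowest to the widest quintile. NPM1 occupancy and WT width thus went together across the whole range.

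Within these quintiles the order of the classes changed with WT width. In the narrowest quintile the median difference was 613 bp at 1314 ends with NPM1 and 672 bp at 1210 without. In the next it was 635 bp at 1947 ends with NPM1 and 600 bp at 585 without. There the classes had changed places. The middle quintile had 574 bp at 2121 ends with NPM1 and 485.5 bp at 396 without. The contrast, with minus without, was -59 bp in the narrowest quintile and 35 and 88.5 bp in the following quintiles, so the sign changed between quintiles 1 and 2. WT width was not fully matched within the quintiles. The WT median with NPM1 minus that without was 86.5, 34, 0, 16 and 50 bp from the narrowest to the widest. The narrowest quintile had WT medians of 413.5 bp with NPM1 and 327 bp without, and knockout medians of 1041 and 1044 bp. The part of these WT gaps in the -59 bp and in the other contrasts was not tested. Quintile 4 had 531 bp at 2257 ends with NPM1 and 418 bp at 267 without, a contrast of 113 bp. The widest had 509 bp at 2373 ends with NPM1 and 393 bp at 145 without, a contrast of 116 bp. The mean contrast over the quintiles was 58.7 bp, against a standard deviation of the difference of 351 to 455 bp among the ends of a quintile. Within 50 bp bins of WT covered bases, a grouping added after the data had been seen, the mean contrast was 40.8 bp. The pattern depended on the 2 kb within which bases were counted. With bases counted within 5 kb the contrasts were 15, 13, 88.5, 6.5 and -75 bp from the narrowest to the widest quintile, with a mean of 9.6 bp, so the signs at both extremes turned. Within 1 kb they were -113.5, -1, 15, 52 and 63.5 bp, with a mean of 3.2 bp.

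The classes overlapped widely in every quintile. Taking every pair of an end with and an end without NPM1 from the same quintile, the NPM1 end had the larger difference in 47.3%, 52.3%, 55.8%, 58.2% and 56.8% of pairs, narrowest quintile first, where 50% would be an even split. The share of ends wider by 500 bp or more was 60.1% with NPM1 and 66.4% without in the narrowest quintile, and 53.1% with NPM1 and 41.6% without in quintile 4. In the widest quintile it was 51.1% with NPM1 (exact 95% binomial interval 49.0 to 53.1) and 42.1% without (33.9 to 50.5). These intervals cover counting error over ends only, and neighbouring ends share peaks: 4093 ends (32.4%) had another gene's end within 2 kb, and 1047 genes contributed both ends.

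**Figure D1:**
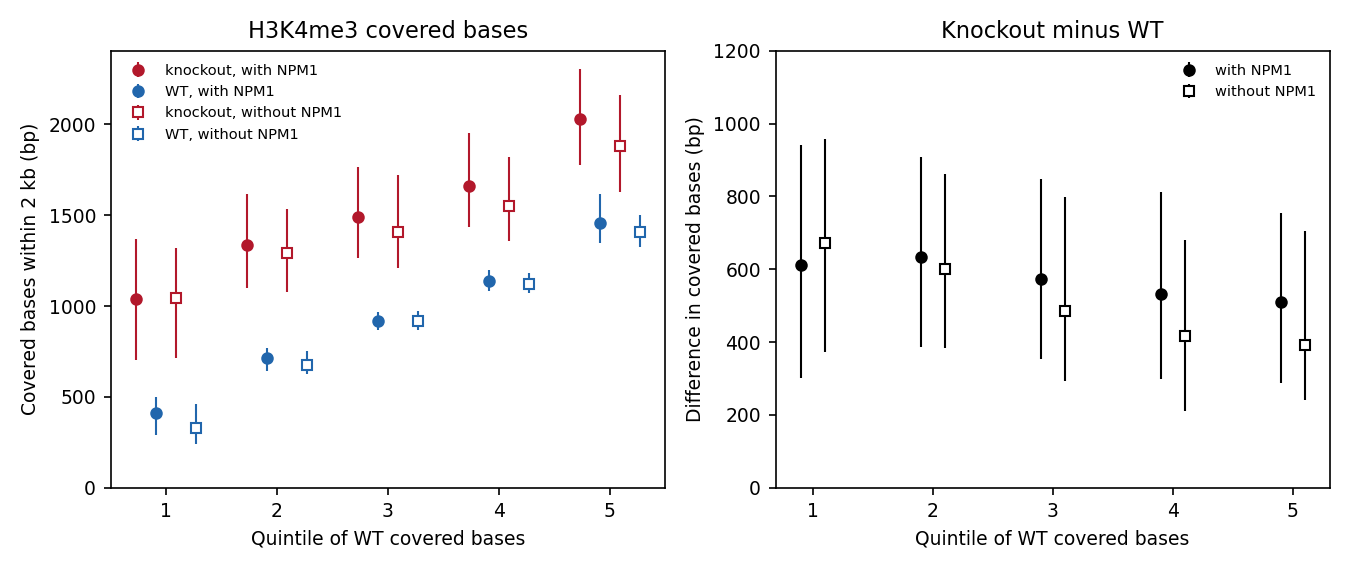
Left, median H3K4me3 covered bases within 2 kb of the end (bp, vertical axis) in the knockout and in WT, and right, the median knockout minus WT difference (bp, vertical axis), by quintile of WT covered bases (horizontal axes; bars in both panels run from lower to upper quartile), for ends with and without NPM1. The median differences with NPM1 are 613 bp in the narrowest and 509 bp in the widest quintile and those without NPM1 672 and 393 bp, so the classes cross between quintiles 1 and 2 while their quartile bars overlap in all 5.

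The ends nearest the median of their class show what such a difference looks like at single genes. At Hykk, which encodes hydroxylysine kinase and had NPM1, H3K4me3 covered 875 bp in the knockout and 262 bp in WT. At the far end of Wnt6, a Wnt ligand gene, it covered 932 bp and 260 bp, without NPM1. In quintile 2, Zfp956 (a zinc finger gene, with NPM1) had 1212 bp in the knockout and 577 bp in WT, and Adamts17 (a secreted metalloprotease gene, without) had 1274 bp and 674 bp. The end without NPM1 was the wider of this pair in both genotypes. In the middle quintile, Lmnb2 (lamin B2, with NPM1) had 1485 bp in the knockout and 911 bp in WT, and Zfp825 (without) had 1400 bp and 912 bp. In quintile 4, Swt1 (with NPM1) had 1626 bp and 1095 bp, and Ttl (tubulin tyrosine ligase, without) had 1457 bp and 1039 bp. In the widest quintile, Fchsd2 (an F-BAR membrane protein gene, with NPM1) had 2161 bp and 1652 bp, and Pde5a (the cGMP phosphodiesterase, without) had 2043 bp and 1650 bp. From the middle quintile up, the NPM1 end of each pair is the wider in the knockout, but the ends were picked by their class median difference. The pairs therefore restate the contrasts above and add no evidence to them. WT widths within a pair also differed in quintile 2 (577 and 674 bp) and in quintile 4 (1095 and 1039 bp).

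The sign of the contrast depended on which width the ends were sorted by. Sorted by knockout covered bases, the contrast was -86.5, -210, -209, -258 and -207 bp over the quintiles, with a mean of -194.1 bp. Sorted by the mean of both genotypes it was -156.5, -178, -82, -106 and -82 bp, with a mean of -120.9 bp. The WT covered bases sort the quintiles and are also subtracted in the difference, so an end's WT count enters both sides of the comparison, and the knockout count does so in the reverse sense. Sorting by the highest WT fold enrichment at the end, which is not subtracted, gave -10, 26.5, 38, 81 and 15 bp, with a mean of 30.1 bp. Ends with NPM1 thus had the larger difference within the quintiles of WT width above the narrowest, and the smaller one within the quintiles of knockout width.

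**Figure D2:**
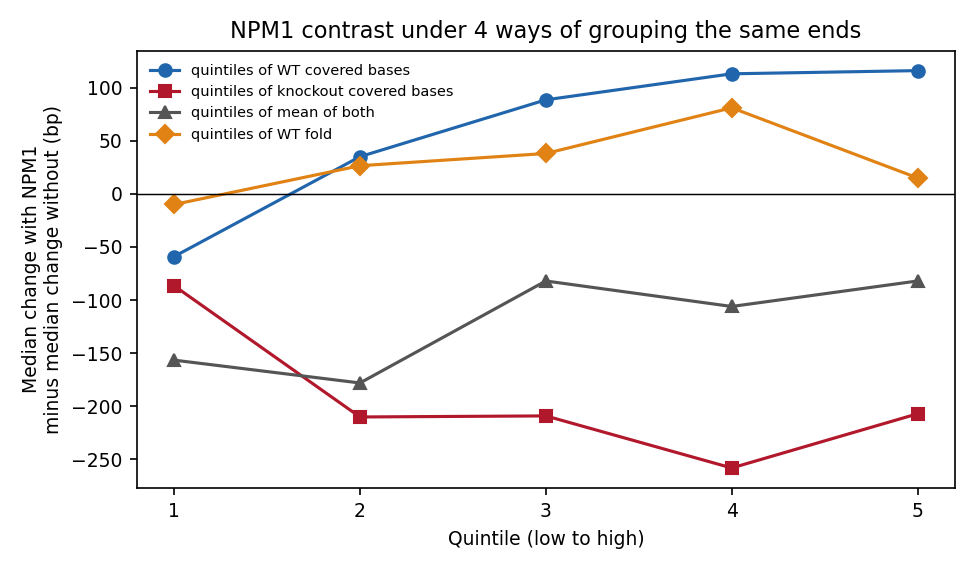
Contrast in the median knockout minus WT covered bases, ends with NPM1 minus ends without (bp, vertical axis), by quintile (horizontal axis) under 4 ways of sorting the ends. Sorted by WT covered bases the contrast runs from -59 to 116 bp, sorted by WT fold from -10 to 81 bp, and sorted by knockout covered bases or the mean of both it is below 0 in all quintiles.

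The difference showed no one order with the strength of the NPM1 peak. Ends with NPM1 were split into quintiles of the deposited NPM1 fold, with bounds from 1.73 to 42.4, and pooled over WT width the median difference was 569, 565.5, 566, 553 and 542 bp from the weakest to the strongest, against 586 bp without NPM1. Averaged over the quintiles of WT width it was 562, 570.3, 582.6, 569.3 and 601.3 bp, against 513.7 bp without NPM1. The highest of these averages includes 714 bp at 70 ends of the narrowest WT quintile. In WT quintile 4 the strongest NPM1 peaks went with 528 bp and the weakest with 550 bp. The strongest quintile thus had the smallest pooled difference and the largest average, but the averages did not rise steadily with fold.

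Averaged over WT width, the difference varied more with where the NPM1 peak lay than with its fold. At 6924 ends the NPM1 peak covered the end itself, and the median difference was 578 bp (607.2 bp averaged over the quintiles of WT width). At the 1580 ends whose nearest NPM1 peak was 1 to 250 bp away the average was 542.6 bp, at 647 ends 251 to 500 bp away 493.3 bp, and at 861 ends 501 to 1000 bp away 470.3 bp. The difference was smaller at each step away from the end within the 1 kb that defined an NPM1 end. Cover was counted only within 2 kb of the end, so H3K4me3 peaks centred away from it could be cut. At Npm1, with NPM1 775 bp from the end, 1469 bp of a knockout peak of 1802 bp were counted. The part of such cuts in these steps was not tested. Beyond 1 kb, among ends that count as without NPM1, the averages were 603.1 bp at 288 ends with a peak 1001 to 1500 bp away, 540.6 bp at 157 ends 1501 to 2000 bp away, 526.3 bp at 595 ends 2001 to 5000 bp away and 497 bp at 1563 ends farther off. The average for 1501 to 2000 bp rests on as few as 12 ends in a quintile. Ends with a peak 501 to 1000 bp away had a lower average than any of these 4 groups.

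Just inside the 1 kb limit (901 to 1000 bp), 117 ends had a median difference of 403 bp, and just outside it (1001 to 1100 bp) 76 ends had 570.5 bp. Where the nearest NPM1 peak did not cover the end, it lay inside the gene at 1979 ends, with a median difference of 491 bp, and outside it at 1109 ends, with 567 bp. The class of ends with NPM1 therefore joins ends whose NPM1 peak lay within 250 bp, with averages above the 513.7 bp of ends without NPM1, to ends whose peak lay farther off, with averages below it.

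Base by base, knockout H3K4me3 was found more often where WT NPM1 lay than elsewhere. At the ends with NPM1, 1272740 bases within 2 kb were under an NPM1 peak but not under WT H3K4me3, and the knockout list covered 74.0% of them. Of 28778614 bases under neither, it covered 18.8%. The gap was present at each distance from the end: 85.5% under NPM1 and 41.4% elsewhere within 500 bp, 74.9% and 31.2% at 501 to 1000 bp, 57.5% and 13.6% at 1001 to 1500 bp, and 42.7% and 5.84% at 1501 to 2000 bp. Ends with neighbours within 2 kb contribute some bases more than once.

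Bases next to a WT H3K4me3 peak were more often covered in the knockout whatever their NPM1 state, so bases were also grouped by their distance from the nearest WT peak. Within 100 bp of a WT peak, the knockout covered 89.6% of the bases under NPM1 and 76.0% of the others. At 101 to 250 bp it covered 77.0% under NPM1 and 46.8% of the others, and at 251 to 500 bp 67.1% and 24.0%. At 501 to 1000 bp it covered 45.3% under NPM1 and 7.88% of the others. The difference between bases under NPM1 and the rest was thus smallest beside the WT peak and larger farther from it.

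Loss of WT cover ran the other way. Of the bases under WT H3K4me3, 1.0% of those also under NPM1 and 4.83% of the others were uncovered in the knockout. Within 500 bp of the end these shares were 0.452% under NPM1 and 2.28% elsewhere, and at 1501 to 2000 bp 4.29% and 17.2%. WT H3K4me3 that overlapped NPM1 was kept almost entirely.

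**Figure D3:**
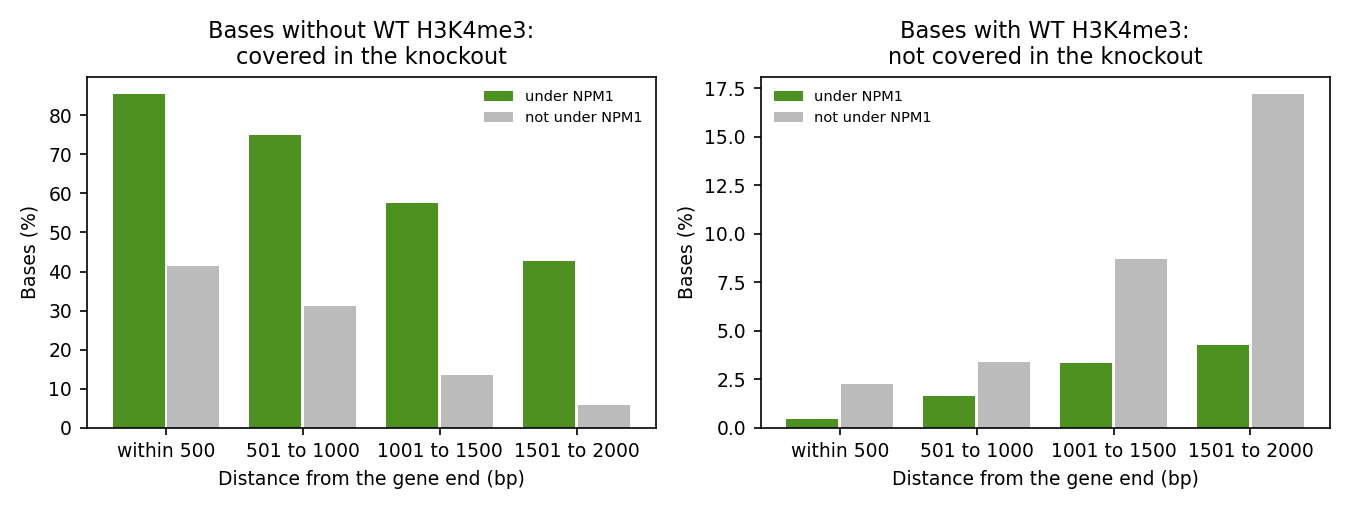
Left, percent of bases without WT H3K4me3 that the knockout list covers, and right, percent of bases with WT H3K4me3 that it does not cover (vertical axes), by distance from the gene end (bp, horizontal axes), for bases under a WT NPM1 peak and not under one. Bases under NPM1 are higher on the left at each distance (85.5% and 41.4% within 500 bp) and lower on the right (0.452% and 2.28%).

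Knockout cover extended mainly into the gene. Ends with NPM1 had on average 634 bases covered in the knockout and not in WT, and 24.4 covered in WT and not in the knockout. Ends without NPM1 had 660 and 43.7. The 501 to 1000 bp inside the gene held 26.5% of the newly covered bases with NPM1 and 27.2% without. The classes differed most in the first 500 bp inside the gene, which held 15.6% with NPM1 and 23.1% without, and 501 to 1000 bp outside it, which held 12.5% and 6.26%. Ends with NPM1 were thus already covered near the start in WT, and more of their added cover lay on the outer side.

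The same is seen along the start ends, those that the RefSeq promoter table gives as the 5′ end of the gene. Strand was known for 17492 genes, and 9060 member ends were start ends, 7314 of them with NPM1 and 1746 without. At the start itself, knockout peaks covered 92.8% of the ends with NPM1 and WT peaks 84.3%, and without NPM1 82.7% and 57.3%. At 500 bp inside the gene the knockout covered 89.5% and WT 56.0% with NPM1, and 81.4% and 37.5% without. At 500 bp upstream the knockout covered 46.3% and WT 23.0% with NPM1, against 21.1% and 7.85% without. In the knockout the classes stood farther apart on this upstream flank than at the start or inside the gene. Median differences at start ends were 570 bp with NPM1 and 625 bp without, and at 1187 far ends, the 3′ ends of genes, 430 bp with NPM1 and 376.5 bp without.

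**Figure D4:**
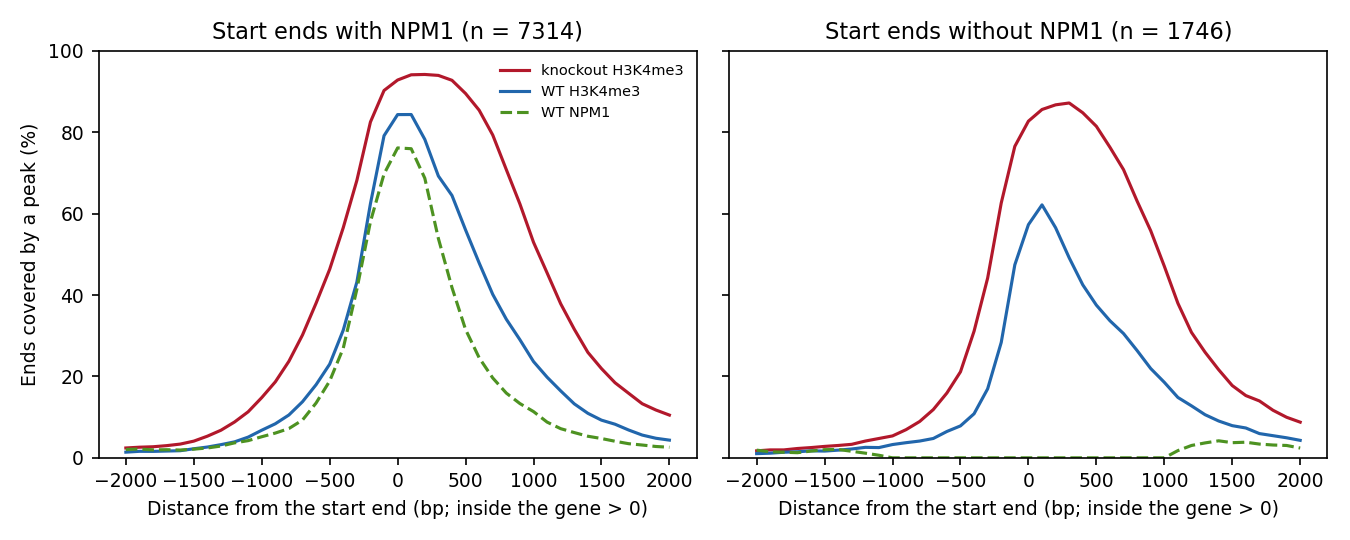
Percent of start ends covered by a peak (vertical axis) against distance from the start (bp, horizontal axis, inside the gene above 0) for knockout H3K4me3, WT H3K4me3 and WT NPM1, at 7314 start ends with NPM1 (left) and 1746 without (right). Knockout H3K4me3 is above WT on both sides of the start in both classes, and without NPM1 the WT curve is 57.3% at the start, against 84.3% with NPM1.

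The 2 classes differed in promoter sequence. Promoters of 300 bp were matched to 6947 start ends with NPM1 and 1610 without. The median GC content was 62.0% with NPM1 and 59.3% without, and the ratio of observed to expected CpG was 0.804 and 0.718. Over all 21263 protein-coding promoters in the table these medians were 56.3% and 0.567. Both classes were richer in CpG than promoters at large, and the NPM1 class more so.

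That gap depended on WT width. In the narrowest quintile of WT covered bases the CpG ratio was 0.672 with NPM1 and 0.681 without, in quintile 2 0.759 and 0.708, and in the widest 0.854 and 0.802. Among exact motifs searched on both strands, GGGCGG, the core of the GC box, was in 70.6% of promoters with NPM1, 60.9% without and 46.2% of all promoters. CCGGAA, the ETS core, was in 31.8%, 25.5% and 18.7%. CCAAT was in 40.6%, 35.7% and 38.2%. The letters TATAAA were in 6.06%, 7.89% and 12.6%. These gaps also varied with WT width: in the narrowest quintile GGGCGG was in 61.7% of promoters with NPM1 and 61.6% without. In the widest quintile TATAAA was in 6.68% with NPM1 and 4.95% without, the reverse of the pooled order. A match is a stretch of letters, not a bound site.

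Base composition was compared with the change in width as well. In quintiles of the CpG ratio, the share of start ends with NPM1 was 70.2% in the lowest and 86.7% in the highest. The median difference in the lowest quintile was 556 bp with NPM1 and 629 bp without, and in the highest 612 bp and 628 bp. In each CpG quintile it was smaller with NPM1, as in the pooled comparison.

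The ends with the largest difference came from both classes. Foxo3, a forkhead transcription factor gene with NPM1 over its start, had 3766 covered bases in the knockout and 1169 in WT. There the knockout list had 1 peak of 4064 bp (chr10:42274397-42278460, mm10). The WT list had a peak of 562 bp and another of 607 bp, which lay within the span of the knockout peak, and NPM1 peaks of 701 and 700 bp lay there too. A single wide domain in the knockout thus spanned what were separate peaks in WT.

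The other ends with NPM1 that widened most were Mgat4b (N-glycan branching, 3485 bp in the knockout and 913 bp in WT), Gpsm3 (3057 and 531 bp), Tnfrsf26 (a TNF receptor family member, 2680 and 226 bp), Safb2 (3344 and 914 bp) and Egln2 (a HIF prolyl hydroxylase, 2779 and 443 bp). Without NPM1 they were Rims2 (a presynaptic scaffold, 2625 bp in the knockout and 200 bp in WT), Kif26b (a kinesin family member, 3094 and 902 bp), Il21r (the IL-21 receptor, 2746 and 622 bp), Gas1 (2510 and 530 bp), Mtfp1 (mitochondrial fission, 2866 and 898 bp) and Trim30c (2130 and 200 bp). Of these 6, Il21r, Gas1 and Mtfp1 had an NPM1 peak between 1 and 2 kb from the end, at 1093, 1968 and 1144 bp.

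Few ends were narrower in the knockout. The largest decreases with NPM1 were at Sfi1 (a centrin-binding protein, 346 bp in the knockout and 1411 bp in WT), Grm2 (a glutamate receptor, 200 and 1003 bp), Elobl (291 and 879 bp) and Wnt8b (425 and 1012 bp). Without NPM1 they were at Ap1m1 (a clathrin adaptor subunit, 200 and 803 bp), Septin3 (227 and 728 bp), Zp3 (an egg coat glycoprotein, 234 and 694 bp) and Syt3 (200 and 618 bp). In none of these 8 did the NPM1 peak cover the end: the nearest was between 353 bp (Sfi1) and 4841 bp (Ap1m1) away. At Sfi1 the highest deposited folds were low: 1.60 in the knockout, 1.63 in WT and 1.84 for NPM1. Sfi1, Grm2, Elobl and Wnt8b also had NPM1 in the sham and IL-4 lists, and Sfi1 in the untreated list as well. What background signal contributes at these ends was not tested. Elobl and Trim30c have close relatives in the mouse genome, between which short reads can be shared.

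Npm1, the TSC and mTOR genes and Kdm5b lay within the range of the other ends. At the end of Npm1 on chromosome 11 at position 33164142, H3K4me3 covered 1469 bp in the knockout and 1057 bp in WT, with an NPM1 peak 775 bp inside the gene. The start of Tsc1 lay under NPM1 (fold 6.17, chr2:28640640-28641704) and had 1490 bp in the knockout and 1236 bp in WT. The start of Tsc2, which encodes the partner of TSC1, had no NPM1 within 1 kb and had 1620 bp in the knockout and 958 bp in WT. The start of Mtor, the kinase that TSC1 and TSC2 restrain, had NPM1 and 1254 bp in the knockout and 995 bp in WT. The start of Kdm5b, the H3K4 demethylase profiled elsewhere in the series, had no NPM1 and 1623 bp in the knockout and 1058 bp in WT. Of these 5 ends, the 3 with NPM1 had differences of 412, 254 and 259 bp, under the median of all ends, and the 2 without had 662 and 565 bp, at or above it. The value at Npm1 depends on the 2 kb limit. Its knockout peak of 1802 bp ran beyond that limit, while its WT peaks of 394 and 677 bp lay almost wholly within it. The place of Npm1 below the median is therefore not secure.

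Gene lists chosen for macrophages and metabolism were described by their ends marked in both genotypes, beside the median difference of 565 bp and the 56.9% wider by 500 bp or more over all members. The lists were chosen with earlier results of these data known. For each end, the difference was also set against the median of its own quintile of WT width and NPM1 class.

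Among the 17 lists with 10 or more ends, early stress and interferon response genes had the largest median differences, 1056 and 1044 bp. Of 21 ends of immediate early and AP-1 genes (20 with NPM1) the median cover was 2202 bp in the knockout and 1040 bp in WT, 16 were wider by 500 bp or more and 16 lay above their class median. The far end of Ier3, an early response gene, had NPM1, with 2816 bp in the knockout and 1014 bp in WT. The far end of the phosphatase gene Dusp1, without NPM1 within 1 kb, had 1408 and 462 bp. An NPM1 peak 1780 bp inside the gene lay over the Dusp1 start. Of 13 interferon response ends (8 with NPM1), 11 were wider by 500 bp or more and 11 lay above their class median. These are among the genes that macrophages switch on within minutes to hours of a stimulus. The median difference of the interferon ends was 1102.5 bp with NPM1 and 1040 bp without. Usp18, which removes ISG15 and had NPM1, had 2230 and 775 bp, and Ddx58, which encodes the RNA sensor RIG-I and had none, had 2227 and 698 bp. Ends of the interferon list were thus wide in the knockout on both sides of the NPM1 split.

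The IL-4 response, macrophage identity and reparative lists came next, with median differences of 882, 847.5 and 845 bp. Of 16 ends of IL-4 response genes 12 were wider by 500 bp or more, with a median difference of 892.5 bp with NPM1 and 882 bp without. Cish, a cytokine signalling inhibitor with NPM1, had 2434 bp in the knockout and 755 bp in WT. The far end of its relative Socs1, without NPM1 within 1 kb, had 2233 and 1086 bp. An NPM1 peak 1414 bp inside the gene lay over the Socs1 start. Of 22 ends of macrophage identity genes 18 were wider by as much, among them Cebpb (2415 and 240 bp, with NPM1), a transcription factor of macrophage activation. The only end of that list without NPM1 within 1 kb, the far end of Cebpa, had 1520 and 1141 bp. Its knockout peak of 3532 bp ran beyond the 2 kb limit, while the WT peak of 1141 bp lay within it. The nearest NPM1 peak to this far end was 2288 bp inside the gene.

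Of 30 ends of inflammatory genes 22 were wider by 500 bp or more, with a median difference of 814 bp with NPM1 and 805 bp without. Nlrp3, the inflammasome sensor with NPM1, had 2581 bp in the knockout and 575 bp in WT, and Il1a, the IL-1α gene without it, had 1897 and 432 bp. Of 18 ends of reparative genes 14 were wider by as much, with Vegfa (2383 and 781 bp, with NPM1) and Axl, a receptor for dying cells (1715 and 217 bp, without), as the widest differences. Inflammatory and reparative genes had nearly the same median difference, 814 and 845 bp. Set against the median of each end's own class, the medians were 174 and 257.5 bp.

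Enzymes that write and erase H3K4 methylation, lysosome and autophagy genes, glycolysis genes and ribosomal protein genes were also above the median of all ends. The 18 ends of H3K4 methylation enzymes (17 with NPM1) had a median difference of 816.5 bp, beside 814 bp for the inflammatory list. Of them, 15 were wider by 500 bp or more, with Kdm2b, a CpG-island binding demethylase, at 2611 bp in the knockout and 512 bp in WT. Of 23 lysosome and autophagy ends 21 were, with Atg7 (2008 and 703 bp, with NPM1) and Lamp2 (1444 and 356 bp, without). Of 18 glycolysis ends 13 were, with Hk3, a hexokinase of myeloid cells (3045 and 1440 bp, with NPM1), and the far end of Tpi1 (1487 and 896 bp, without). Of 35 ribosomal protein ends 25 were, with Rpl23 (2256 and 740 bp, with NPM1) and Rpl32 (2194 and 648 bp, without).

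Housekeeping genes were also above all ends, while mTORC1 and TSC signalling and ribosome biogenesis genes lay nearer to them. Median differences were 723 bp at 19 housekeeping ends, 617 bp at 33 mTORC1 and TSC ends and 567 bp at 24 ribosome biogenesis ends. Set against the median of each end's own class, the medians were 195, 98 and -56 bp. The same value was 176 bp for ribosomal protein genes and 174 bp for inflammatory genes. Akt1s1, which encodes the mTORC1 inhibitor PRAS40 and had NPM1, had 2845 bp in the knockout and 1180 bp in WT. Rrp9, a pre-rRNA processing factor with NPM1, had 2967 and 1272 bp. Within the mTORC1 and TSC list the median difference was 611.5 bp at 30 ends with NPM1 and 838 bp at 3 without.

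Mitochondrial, proliferation and chaperone genes were at or below the median of all ends. Of 22 ends of tricarboxylic acid cycle and oxidative phosphorylation genes 11 were wider by 500 bp or more, and of 21 proliferation ends 9 were. Of 17 fatty acid oxidation ends 7 were, with a median cover of 1468 bp in the knockout and 1070 bp in WT. Cpt1a, the gate of fatty acid entry into mitochondria, was an exception at 2192 and 794 bp. Of 22 ends of the NPM family and other histone chaperones, 19 of them with NPM1, 5 were wider by 500 bp or more and 4 lay above their class median, and the median cover was 1520.5 bp in the knockout and 1203.5 bp in WT. The median differences of the chaperone and fatty acid oxidation lists, 357.5 and 357 bp, were the lowest of the 17 lists with 10 or more ends.

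**Figure D5:**
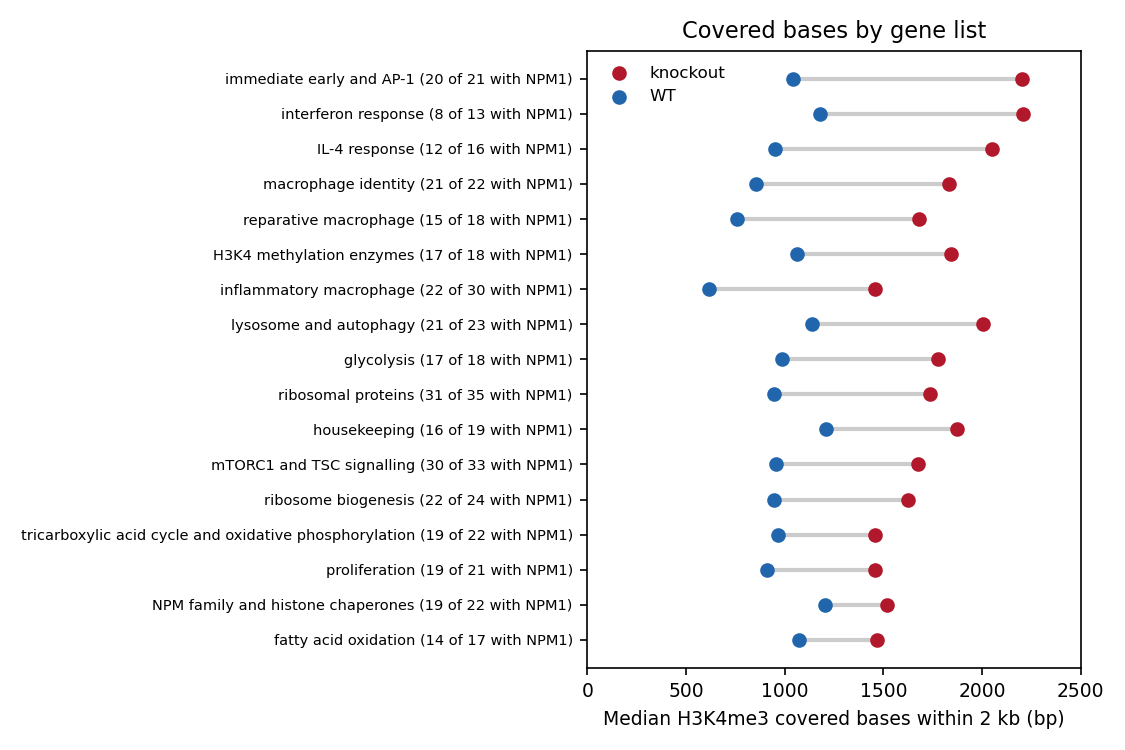
Median H3K4me3 covered bases within 2 kb of the gene end (bp, horizontal axis) in the knockout and in WT for the ends of 17 gene lists (vertical axis, ordered by median difference, with the number of ends that had NPM1). The knockout median is above WT in all 17 lists, by 1056 bp for immediate early and AP-1 genes and by 357 bp for fatty acid oxidation genes.

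Lists of other cell types had few ends marked in both genotypes: 2 for cardiomyocytes, 2 for fibroblasts, 5 for endothelium, 3 for neutrophils, 3 for T and NK cells, 0 for B cells and 2 for genes of other tissues. Of all 28 ends of 14 fibroblast genes, 10 were marked in the knockout only (35.7%, against 7.26% of all gene ends), 2 of them with NPM1, and 1 in WT only (3.57%, against 3.66% of all gene ends). Of 26 endothelial ends 5 were marked in the knockout only (19.2%) and 2 in WT only, and of 20 B cell ends 3 (15%) and 2. Neutrophil genes had 2 and 2 of 24 ends, and T and NK cell genes 1 and 2 of 28. Cardiomyocyte genes had 1 and 2 of 36, and genes of other tissues 2 and 2 of 36. Knockout-only shares above 7.26% were not particular to other cell types. They were 18.2% for lysosome and autophagy, 16.7% for glycolysis and 15.2% for macrophage identity genes. Other lists lay below it, such as mTORC1 and TSC signalling at 1.67% and fatty acid oxidation at 0%. The 2 fibroblast ends marked in both genotypes had a median difference of 1246 bp. At the fibrillin gene Fbn1, without NPM1, the knockout had 1688 bp and WT 238 bp.

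Ends marked in one genotype only carried NPM1 much less often than ends marked in both. Over all 43774 ends, 29.6% had NPM1 within 1 kb. Of the 3179 ends marked in the knockout only (7.26% of all), 835 had NPM1, or 26.3% (exact 95% interval 24.7 to 27.8). Of the 1604 marked in WT only (3.66%), 489 had it, or 30.5% (28.2 to 32.8). Ends marked in both had it at 79.4% (78.6 to 80.1) and ends marked in neither at 6.21%. The knockout-only ends thus had NPM1 slightly less often than the WT-only ends.

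With strong NPM1 peaks only, and the H3K4me3 lists unfiltered, the order of the knockout-only and WT-only classes turned. An NPM1 peak with a deposited −log10 q of 5 or more was within 1 kb at 3.90% of knockout-only ends, 1.62% of WT-only ends and 49.7% of ends marked in both. Over all 43774 ends the share was 14.8%. With the same threshold on the H3K4me3 lists too, the order did not turn. NPM1 was then at 10.4% of 3994 knockout-only ends and 14.6% of only 96 WT-only ends. Of the ends with NPM1, the peak was this strong at 14.9% in the knockout-only class, 5.32% in the WT-only class and 62.6% of ends marked in both, against 17.4% of peaks in the whole NPM1 list. The median NPM1 fold was 2.92 at knockout-only and 2.98 at WT-only ends, against 2.98 over the whole list. NPM1 at ends marked in a single genotype was thus near the list at large in fold.

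The classes also differed in kind of end. Of ends with known strand, starts made up 54.1% of the knockout-only, 34.9% of the WT-only and 88.4% of the ends marked in both. NPM1 was present at 19.5% of knockout-only starts and 34.1% of knockout-only far ends, and at 31.1% of WT-only starts and 29.8% of WT-only far ends. WT-only ends had the higher share at starts, and knockout-only ends at far ends.

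H3K4me3 peaks passed a high threshold more often at knockout-only than at WT-only ends, as they did in the whole lists. The deposited −log10 q was at least 5 at 44.9% of knockout-only ends with NPM1 and 53.5% of those without, and at 10.4% of WT-only ends with NPM1 and 1.97% of those without. Over the whole lists it was at least 5 at 54.8% of knockout and 23.0% of WT peaks. The knockout-only shares were thus close to that of their list, and the WT-only shares below it. Median cover was 517 bp with NPM1 and 634.5 bp without at knockout-only ends, and 318 bp with and 255 bp without at WT-only ends. NPM1 went with weaker peaks among knockout-only ends and with stronger ones among WT-only ends.

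Some of these ends missed the other list only by position. The WT list had a peak 1 to 2 kb away at 715 knockout-only ends (22.5%), and the knockout list had one at 213 WT-only ends (13.3%). Without these, NPM1 was present at 26.8% of 2464 knockout-only ends and 30.3% of 1391 WT-only ends.

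The strongest knockout-only ends were all of that kind. With NPM1 they were Fitm1, S1pr4, Msantd2, Fbxl18, Ndufaf8 and Tsga10ip, and without it Srr, Msmb, Phpt1, Vps45, Ciao3 and Lig1, and WT H3K4me3 covered some bases within 2 kb at all 12. At Lig1, the DNA ligase I gene, the window held 1238 bp in the knockout and 902 bp in WT. The strongest WT-only ends with NPM1 were at Piezo1 (a mechanosensitive channel), Arhgap28, Clca3b and Slc30a4, far ends at which the knockout list covered no base and WT 554, 807, 351 and 858 bp. These ends also had NPM1 in the sham and IL-4 lists, and all but Piezo1 had it in the untreated list. Sham NPM1 was at 37.8% of all WT-only ends with NPM1 and at 11.6% of knockout-only ends with NPM1. The strongest WT-only ends without NPM1 were at Xkrx, Aktip, Pisd and Gdf2, and the knockout list covered bases at 3 of these 4.

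NPM1 lists from other macrophages sorted the ends differently. NPM1 in IL-4 macrophages was found at 78.0% of ends marked in both genotypes, 28.5% of knockout-only and 32.1% of WT-only ends, close to the infarct shares. The 9073 ends with NPM1 in both the infarct and the IL-4 list had a median difference, averaged over the quintiles of WT width, of 579.3 bp. The average was 497.6 bp at 939 ends with NPM1 in the infarct list only, 528.5 bp at 765 ends with NPM1 in the IL-4 list only and 495.1 bp at 1838 ends with neither. Ends with NPM1 in the infarct list only thus lay nearer to ends with neither than to ends with both.

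The sham and untreated lists, with background pileups of 1.29 and 1.31 against 3.03 for the infarct list, held NPM1 at few ends. Sham NPM1 was at 6.42% of ends marked in both, 7.14% of knockout-only and 23.2% of WT-only ends. Untreated NPM1 was at 5.98%, 1.82% and 9.10%. Both were more frequent at WT-only than at knockout-only ends.

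At the 810 ends with sham NPM1 the median difference was 398 bp and 15.9% of ends were narrower in the knockout. At the other 11805 ends the median was 574 bp and 2.19% were narrower. At 754 ends with untreated NPM1 it was 490.5 bp, against 570 bp at the rest. Averaged over the quintiles of WT width, the values were 385.2 bp with sham NPM1 and 582.4 bp without, and 455.7 bp with untreated NPM1 and 574.3 bp without. Ends occupied in these lists had the smaller difference both pooled and averaged, while ends occupied in the infarct list had the smaller pooled and the larger averaged difference.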

How the data were processed

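Deposited peak lists of 6 libraries were used as they stood: H3K4me3 in knockout and WT infarct macrophages, and NPM1 in infarct, sham, untreated and IL-4 WT macrophages. The other 4 libraries of the series' 10 were not analysed here. The submitters' processing notes name build mm10, the aligner Bowtie2, MACS2 2.2.7.1, bcl2fastq 2.17 and deepTools. For settings, control libraries and duplicate reads, the methods were not given in the sources used here.

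The deposited files list peaks of 1 library each with a score, a fold enrichment (a ratio), a −log10 p and a −log10 q, as the authors' peak caller wrote them. Peak height and width depend on depth, which was read from the fold and −log10 p at the summits. Between 5.01% (knockout H3K4me3) and 27.8% (untreated NPM1) of peaks in a list had q above 0.05, and these were kept.

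Gene ends, strands and promoters came from RefSeq tables for GRCm38.p6. The table of ends gives no strand, which was taken from the promoter table. A peak marked an end if it lay within 1 kb, and covered bases were counted within 2 kb. With 1 library per group no test was run. Values are medians and shares, with exact binomial intervals where given.

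The members, the 24 gene lists (460 genes) and the comparisons were chosen with earlier results of these data known. Named ends were Npm1, Kdm5b, Tsc1, Tsc2 and Mtor. To these were added, in each quintile, the end nearest its class median, then the 6 gains and 4 losses that were largest in each class, the one-genotype ends with the highest −log10 q (6 per class in the knockout, 4 in WT), and the widest difference in each list with and without NPM1. Predicted and olfactory genes, and ends within 2 kb of one already taken, were passed over. The grouping of bases by distance from a WT peak, the one-genotype ends without a peak of the other list within 2 kb, and 4 alternatives were added after the data had been seen. Checked on simulated peaks, the calculation returned a planted contrast of 200 bp as 200 bp. Python 3.11.15, numpy 2.4.6, pandas 2.3.3, scipy 1.17.1 and matplotlib 3.10.9 were used.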

Additional observations from a re-analysis of the deposited data

How the results depend on the processing

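No paired analysis was possible because each group is 1 library, so leaving out a replicate was not possible either. The contrast of 58.7 bp, ends with NPM1 minus ends without averaged over quintiles of WT width, stayed within the counting error over ends under 14 of 26 alternatives in bp, and that of 4.95 percentage points in the share wider by 500 bp or more did so under 16 of 24. As a log2 ratio the contrast kept its sign (0.02). In bp it moved to 138.1 with all peaks at a −log10 q of 5 or more, 30.6 with a 500 bp marking window, 30.9 without neighbouring ends, 3.2 and 9.6 with cover counted within 1 and 5 kb, 30.1 in quintiles of WT fold, 100.5 for the widest peak, and 91.26 in WT width crossed with WT fold (added after seeing the data). It reversed to -194.1 in quintiles of knockout width, -120.9 in quintiles of the mean, -197.2 for sham NPM1 and -118.6 for untreated NPM1. The share contrast moved to 8.86 (q filter), 2.26 (500 bp window), 2.24 (5 kb cover) and 9.36 (crossed), and reversed to -17.1, -10.3, -18.6 and -9.20 under the same 4 reversals. Within quintiles, cover within 1 kb gave -113.5, -1, 15 and 52 bp in quintiles 1 to 4, and cover within 5 kb gave 15, 6.5 and -75 bp in quintiles 1, 4 and 5. A straight line on WT width gave a pooled contrast of 36.0 bp in place of -27 bp. The share of ends with NPM1, in knockout-only, WT-only and both-marked ends, was 20.7%, 22.7% and 76.5% with peaks at q of 0.05 or less, 10.4%, 14.6% and 60.5% at a −log10 q of 5 or more, 5.02%, 2.28% and 70.7% with weaker NPM1 peaks left out, 19.2%, 24.9% and 76.3% with lists of equal length, 40.8%, 40.2% and 81.6% with a 2.5 kb window, and 22.2%, 26.6% and 76.2% with the summit in the window. A 500 bp window gave 21.5% and 25.5% for knockout-only and WT-only ends. Knockout-only and both-marked ends had 21.1% and 80.3% with 1 end per gene, 19.5% and 80.7% at start ends, and 28.5% and 78.0% with IL-4 NPM1, and both-marked ends had 76.5% without neighbouring ends. With sham NPM1 the 3 shares were 7.14%, 23.2% and 6.42%, and with untreated NPM1 1.82%, 9.10% and 5.98%. The causes of these shifts were not tested. Depth, enrichment and width of the whole lists cannot be told apart from genotype with 1 library each, and an end without a peak is one where none was called at that depth.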
